A study of Mus musculus with 55 samples.

Results

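The cortex of mice that had eaten the CSF1 receptor inhibitor PLX5622 was compared, 30 days after a diffuse traumatic brain injury (TBI), with the cortex of uninjured mice on control chow, to ask how far each measured gene remained from its level in intact tissue. The comparison took the 7 mice labelled PLX5622 and TBI at 30 days and the 7 naive vehicle mice, which are 14 of the 55 mice of the series. Each mouse gave 1 library, in which 799 genes were counted with the nanoString nCounter, an instrument that counts barcoded probes bound to single target molecules. All mice were adult male C57BL/6 animals, purchased at 8 to 10 weeks of age, and the labels name no allele or transgene. The injured mice received PLX5622 at 1200 mg/kg in AIN-76A chow for 14 days before the injury and then until tissue was taken, while the naive vehicle mice ate plain AIN-76A chow and had no TBI. A naive vehicle mouse, number 695, has 7d in its title, and its injury label reads naive. Diet, injury and possibly time on chow differ between these groups, and within this comparison they cannot be told apart. The naive PLX5622 mice (n = 6), the vehicle mice at 30 days (n = 5) and the PLX5622 mice at 1 day (n = 8) and 7 days (n = 9) serve below as reference points. The labels do not state for how long the naive mice had eaten their chow, and each time after injury on PLX5622 is also a longer time on the drug.

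RNA came from microdissected cortex, where neighbouring sections stained for CD11b served as the guide and regions with hypertrophied or rod-shaped microglia were the target, per the labels' protocols. CD11b is the product of Itgam, so the values of Itgam describe the samples and are no finding between them. The labels give the same dissection text for naive and injured mice and do not state how regions were chosen in naive or microglia-depleted tissue. The part of region choice in the values of the other microglial genes was not tested. The deposited values are normalised counts on a linear scale. Total counts per mouse ran from 342217 to 858965 (median 505694) on PLX5622 at 30 days and from 339837 to 899379 (median 504376) in naive vehicle mice. Markers of cortical tissue were high in both groups, with means of 11040 normalised counts of Syt1, the calcium sensor of synaptic vesicles, against 10950, and of 7498 of Mbp, a myelin protein, against 7237.

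Microglia are the resident macrophages of the brain. They need signalling through CSF1R for survival, and CSF1R inhibitors remove most of them while the drug is given, and the brain refills with microglia once it is withdrawn. Resting microglia are recognised by a surface programme that includes the purine receptor P2RY12, the fractalkine receptor CX3CR1 and TMEM119, and they make most of the C1q of the brain, the starter of the classical complement pathway. Activated microglia lower that resting programme and raise phagocytic genes such as Trem2 and Cd68. Astrocytes answer injury by raising GFAP, an intermediate filament.

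The promoters of 5 genes on which the results turn are shown, as far as the RefSeq table for GRCm38.p6 held them: the resting marker P2ry12, which lay farthest below intact cortex, C1qb and C1qc, neighbours that encode chains of 1 protein, Itgam, which guided the dissection, and Gfap, the gene that rose. Each runs 5′ to 3′ on the strand of its gene, from 250 bases before the annotated start to 50 bases after it. Capitals mark GAGGAA or its reverse complement TTCCTC, the core bound by PU.1, the product of Spi1 and a lineage factor of myeloid cells. The core contains GGAA, which is shared by the whole ETS family.
P2ry12 (chr3:59262936-59263235, minus strand): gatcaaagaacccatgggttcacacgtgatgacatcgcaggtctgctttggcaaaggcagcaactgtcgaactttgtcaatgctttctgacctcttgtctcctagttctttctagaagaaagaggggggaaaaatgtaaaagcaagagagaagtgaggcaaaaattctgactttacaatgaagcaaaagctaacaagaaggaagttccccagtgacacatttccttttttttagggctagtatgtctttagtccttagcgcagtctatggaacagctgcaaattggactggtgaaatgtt
C1qb (chr4:136886151-136886450, minus strand): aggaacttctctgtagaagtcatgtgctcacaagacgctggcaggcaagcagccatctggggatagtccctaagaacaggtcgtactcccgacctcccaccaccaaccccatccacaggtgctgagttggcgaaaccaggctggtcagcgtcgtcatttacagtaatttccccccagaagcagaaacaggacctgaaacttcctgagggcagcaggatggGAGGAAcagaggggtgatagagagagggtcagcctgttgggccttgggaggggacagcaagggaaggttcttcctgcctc
C1qc (chr4:136892865-136893164, minus strand): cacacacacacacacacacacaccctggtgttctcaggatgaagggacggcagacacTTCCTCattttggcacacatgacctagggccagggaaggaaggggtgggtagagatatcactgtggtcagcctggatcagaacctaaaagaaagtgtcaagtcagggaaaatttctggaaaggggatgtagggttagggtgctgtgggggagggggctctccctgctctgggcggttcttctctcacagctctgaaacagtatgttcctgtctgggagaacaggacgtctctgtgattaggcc
Itgam (chr7:128062390-128062689, plus strand): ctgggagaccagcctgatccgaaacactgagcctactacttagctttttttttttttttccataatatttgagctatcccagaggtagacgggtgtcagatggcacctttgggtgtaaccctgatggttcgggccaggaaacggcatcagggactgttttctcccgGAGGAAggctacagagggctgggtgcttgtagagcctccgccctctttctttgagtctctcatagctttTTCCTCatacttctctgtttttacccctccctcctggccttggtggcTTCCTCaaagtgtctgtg
Gfap (chr11:102897151-102897450, minus strand): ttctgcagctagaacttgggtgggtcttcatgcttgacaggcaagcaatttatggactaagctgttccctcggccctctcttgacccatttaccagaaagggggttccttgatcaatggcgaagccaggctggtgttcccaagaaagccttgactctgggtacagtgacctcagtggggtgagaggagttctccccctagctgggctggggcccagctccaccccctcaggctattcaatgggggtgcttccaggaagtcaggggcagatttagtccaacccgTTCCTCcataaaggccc
Of the 17 genes that were lower, 11 had a promoter in the table, and 5 of the 11 (45.5%) held the core: Itgam at 3 places and C1qb, C1qc, Cd33 and Stab1 at 1 place each. It was present in 29.0% of the 593 promoters found for genes of the panel and in 28.3% of all 27025 promoters listed. The P2ry12 window holds no match, and that of Gfap, which rose, holds 1. No entry was found for C1qa, Cd86, Csf1r and Tmem119.

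At 30 days on PLX5622 the cortex held from 10.6% to 26.0% of the intact level of the microglial genes P2ry12, Csf1r, Cx3cr1 and Tmem119. It held far more Gfap than intact cortex, and less C1q by calls that depended on single mice and on the model. A gene was called where limma's adjusted p was under 0.05, with the fit made over all 55 mice on log2(value + 1). By that rule 18 of 799 genes (2.25%) differed from naive vehicle cortex, 17 lower (2.13%) and 1 higher (0.125%). Those described here are P2ry12, Csf1r, Cx3cr1, C1qc, Itgam, Tmem119, C1qb, C1qa, Ncf1, Cd86, Cd33, Ang, Stab1, Tgfbr1 and Tgfb1, and the gene that rose was Gfap. The 7 injured mice lay below all 7 naive vehicle mice for 8 genes (1.0% of the panel): Csf1r, Cx3cr1, P2ry12, Tmem119, Itgam, Cd33, Tgfb1 and Tgfbr1. Itgam is included in these and later counts and figures, though its product guided the dissection and its values are no finding. No gene had all injured mice above all naive vehicle mice.

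The remaining panel was close to intact cortex as far as its error allowed. For 702 genes (87.86%) the 95% interval of the difference in log2(value + 1) lay within -1 and 1. For genes with high counts, a change of 2-fold or more in either direction was thus outside the interval. The scale understates changes of low genes, so for these a 2-fold change in counts is not excluded. The number of bounded genes ran from 601 to 762 over the alternative analyses that give an interval. A further 79 genes were neither called nor bounded in this way, and 52 of them had a mean under 20 normalised counts. Over all genes the median difference was -0.05 on the log2 scale and the median size of the difference was 0.12. At an unadjusted p under 0.05 there were 63 genes (7.88%), 16 higher and 47 lower.

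**Figure D1:**
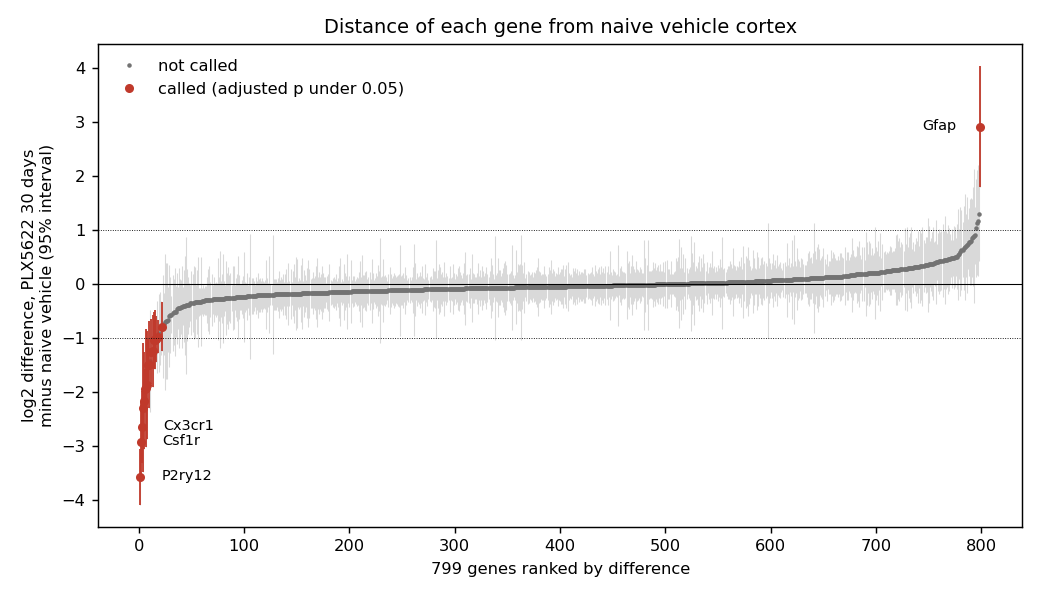
Log2 difference (PLX5622 at 30 days minus naive vehicle) of each of the 799 genes, ranked on the x axis, with its 95% interval from the limma fit. Called genes are red, with P2ry12 at -3.58 as the lowest and Gfap at 2.91 as the highest, and the dotted lines at -1 and 1 enclose the intervals of 702 genes.

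The receptor that the drug blocks is encoded by Csf1r. Csf1r stood at 17.2, 19.1, 5.78, 43.7, 45.5, 56.3 and 19.2 normalised counts in the 7 injured mice, in the order of their mouse numbers 685, 700, 708, 715, 721, 727 and 733, while naive vehicle mice spanned 169 to 225. The groups did not overlap, and mouse 708 stood well below the other injured mice. Csf1r fell by 2.93 on the log2 scale (SE 0.36, limma adjusted p = 3.0e-08). In pieces of tissue, fewer microglia and less RNA in each microglial cell cannot be told apart. The other measured lineage genes were the transcription factor genes Spi1 and Irf8, named after their values were seen. Spi1 had a mean of 14.9 ± 10.1 (SD, n = 7) against 27.1 ± 4.74 (SD, n = 7), a difference of -0.99 that did not pass the test (limma adjusted p = 0.142), and Irf8 had 12.2 ± 6.43 against 14.1 ± 4.09.

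The resting markers P2ry12, Cx3cr1 and Tmem119 fell. P2ry12, the receptor that draws microglial processes to released nucleotides, was at 17.2, 36.9, 14.9, 37.9, 58.0, 78.5 and 16.9 normalised counts in the injured mice and at 282 to 476 in naive vehicle mice. Its mean was 10.6% of the naive vehicle mean, and it fell by 3.58 on the log2 scale (SE 0.26, limma adjusted p = 8.7e-16). Cx3cr1, the receptor for the neuronal chemokine fractalkine, was at 12.5, 28.6, 9.08, 27.6, 51.2, 42.5 and 12.4 against 122 to 173. Its mean was 17.7% of intact, and it fell by 2.65 (SE 0.33, limma adjusted p = 3.0e-08). Mice 685, 708 and 733 were the lowest for both genes, and all 7 mice were below the naive vehicle range.

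Tmem119, a membrane protein used to tell microglia from other macrophages, was tighter. The injured mice held 20.3, 10.7, 18.2, 27.0, 21.6, 22.2 and 18.1 normalised counts and the naive vehicle mice 66.3 to 90.4. Its mean was 26.0% of intact, and it fell by 1.94 (SE 0.18, limma adjusted p = 2.9e-12). Mouse 700 was the lowest here, followed by mice 733, 708 and 685, the lowest for P2ry12. Fcrls, a microglial Fc receptor-like scavenger gene, ran from 6.61 to 83.1 in the injured mice against 63.3 to 110, and its difference of -1.43 did not pass (limma adjusted p = 0.126).

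**Figure D2:**
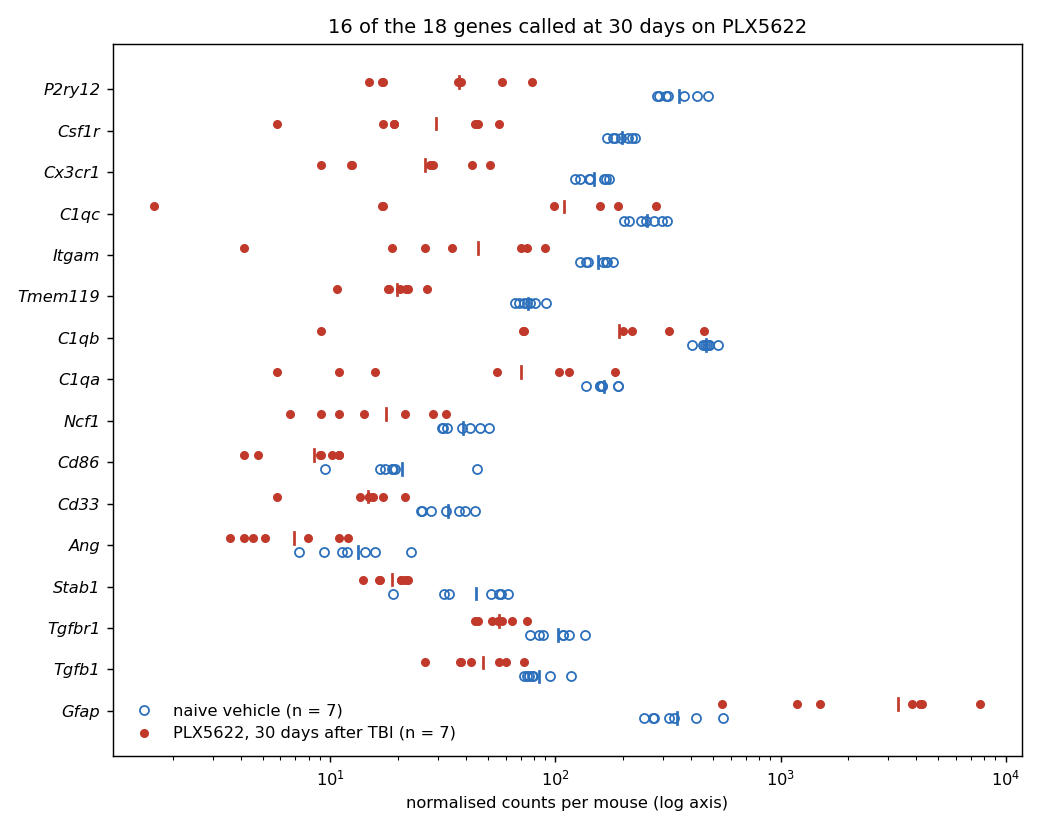
Normalised counts per mouse (log axis) of 16 of the 18 called genes, with filled points for the 7 mice on PLX5622 at 30 days, open points for the 7 naive vehicle mice and a short vertical line at each group mean. P2ry12, Csf1r, Cx3cr1 and Tmem119 are separated between groups, the C1q genes spread over a wide range on PLX5622, and mouse 708 holds the Gfap point (547) inside the naive vehicle range.

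The C1q genes were the most uneven. C1qb, the B chain, was at 71.8, 219, 9.08, 199, 318, 457 and 72.2 normalised counts in the injured mice and at 406 to 529 in naive vehicle mice, so that mouse 727 lay in the intact range while mouse 708 was far below the others. C1qc, the C chain, was at 17.2, 98.9, 1.65, 158, 190, 279 and 16.9 against 201 to 313. C1qa, the A chain, was at 10.9, 54.8, 5.78, 104, 115, 184 and 15.8 against 136 to 190. Mouse 727 was the highest and mouse 708 the lowest for each of the 3 genes, and 685 and 733 were next to the lowest.

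By limma, C1qc fell by 2.30 (SE 0.59, adjusted p = 0.0209), C1qa fell by 1.87 (SE 0.50, adjusted p = 0.0247) and C1qb fell by 1.94 (SE 0.54, adjusted p = 0.0389). Their means were 42.6%, 42.5% and 41.1% of intact. These calls depended on single mice and on the model. Without injured mouse 685, 708 or 733 each of the 3 calls was lost. That of C1qa was also lost without naive vehicle mouse 691, 695 or 732, and that of C1qb without any 1 of the 7 naive vehicle mice. The limma adjusted p over all 14 mice left out reached 0.103 for C1qc, 0.146 for C1qa and 0.155 for C1qb, and edgeR and DESeq2 called 0 of the 3. The other complement genes measured were C4a, C3, C3ar1 and C6, none of which was called, and C4a was at 15.8 ± 3.66 (SD, n = 7) against 16.5 ± 4.81 (SD, n = 7).

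Some phagocyte genes were called lower and others did not pass the test, and no difference between these genes was tested. Of the 23 measured microglial genes, 9 were lower and 0 higher (against 2.13% and 0.125% of the panel), and 6 had an interval within -1 and 1. Their median difference was -0.92, beside -0.05 over all 799 genes. With edgeR or DESeq2 the number of lower genes was also 9, and without mouse 708 it was 7. Among the 15 genes for phagocytosis and activation, Itgam, Ncf1, Cd33 and Cd86 were lower. Itgam, described here only because its product guided the dissection, was at 18.7, 26.2, 4.13, 34.7, 75.0, 89.6 and 70.0 against 128 to 180, a log2 difference of -2.17 (SE 0.45). Ncf1, a subunit of the phagocyte oxidase, had a mean of 17.7 ± 10.1 (SD, n = 7) against 39.0 ± 7.54 (SD, n = 7) and fell by 1.26 (limma adjusted p = 0.00788). Cd33, an inhibitory sialic acid receptor, ran from 5.78 to 21.4 against 25.3 to 43.9 and fell by 1.05 (limma adjusted p = 0.0176). Cd86, a costimulatory ligand, ran from 4.13 to 10.9 against 9.42 to 44.6 and fell by 1.25 (limma adjusted p = 0.0238). The call of Cd33 was lost without mouse 708, 691 or 732, and that of Cd86 without mouse 700, 708, 732 or 737.

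Trem2, the lipid-sensing receptor of phagocytic microglia, was not distinguished from intact cortex. It was at 23.4, 76.2, 9.91, 33.4, 96.6, 133 and 15.8 normalised counts against 43.4 to 103 in naive vehicle mice, so that mouse 727 was above and mice 685, 708, 715 and 733 were below the whole intact range. The difference was -0.92 (SE 0.36, limma adjusted p = 0.337), and its 95% interval from -1.64 to -0.19 leaves the size undetermined. Cd68, a lysosomal glycoprotein of phagocytes, was at 25.0, 52.4, 15.7, 39.2, 77.3, 67.4 and 44.0 against 32.2 to 58.6, with 2 mice above and 2 below the intact range. Its difference was -0.03, with a 95% interval from -0.67 to 0.60. Tyrobp, the signalling partner of TREM2, had a mean of 20.97 ± 12.3 (SD, n = 7) against 32.9 ± 9.42 (SD, n = 7), a difference of -0.83 that did not pass (limma adjusted p = 0.376), and Aif1, which encodes the microglial marker IBA1, had 15.4 ± 5.32 against 15.4 ± 5.01. Aif1 was low in counts and stood at 81.4% of intact in naive PLX5622 cortex, where Csf1r was at 4.44%. The Aif1 level at 30 days is therefore not read as a return of microglia.

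The balance between such genes was also taken within each mouse. The log2 ratio of Cd68 to P2ry12 had a mean of 0.38 ± 0.50 (SD, n = 7) in injured mice and of -3.03 ± 0.31 (SD, n = 7) in naive vehicle mice, and that of Trem2 to P2ry12 had 0.30 ± 0.58 against -2.37 ± 0.37. For both ratios all 7 injured mice were above all 7 naive vehicle mice. The ratio of C1qb to P2ry12, at 1.89 ± 1.14 against 0.43 ± 0.26, did so in 6 of 7 mice. P2ry12 alone had already separated the groups, so a gene that fell less gives a higher ratio by construction. The ratios are therefore no result apart from the fall of P2ry12. These pairs were chosen after the values were seen, and no p-value is printed for them. Since the probes of different genes count with different efficiency, only the shift between groups can be read.

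The remaining lower genes are not in the microglial list. Tgfbr1, a TGF-beta receptor through which the resting microglial state is maintained, was at 45.3, 64.3, 52.0, 43.7, 58.0, 74.8 and 55.3 normalised counts against 77.0 to 135 and fell by 0.98 (SE 0.15, limma adjusted p = 6.3e-06). Its ligand gene Tgfb1 ran from 26.4 to 72.2 against 72.3 to 117 and fell by 0.80 (SE 0.23, limma adjusted p = 0.0417), a call lost without any 1 of 10 of the 14 mice (685, 700, 708, 715, 721, 691, 695, 706, 732 or 742) and with edgeR and DESeq2. The groups did not overlap for either gene, narrowly so for Tgfb1. Stab1, a scavenger receptor of macrophages and vessel lining, ran from 14.0 to 22.2 against 19.0 to 61.7 and fell by 1.03 (limma adjusted p = 0.00105). Ang, which encodes the secreted ribonuclease angiogenin, was low in both groups, from 3.57 to 12.0 against 7.24 to 22.9, and fell by 1.04 (limma adjusted p = 0.0238). The call of Ang was lost without mouse 700, 708, 733, 706 or 732. Stab1 and Ang stand outside the naming rule and were chosen after their values were seen.

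Gfap was the gene that rose. The injured mice held 1189, 4151, 547, 4259, 3825, 7719 and 1497 normalised counts and the naive vehicle mice 248 to 554, so that 6 of 7 were above the intact range and mouse 708 was inside it. The mean was 3312 ± 2474 (SD, n = 7) against 346 ± 108 (SD, n = 7), which is 958% of intact. Gfap rose by 2.91 on the log2 scale (SE 0.56, limma adjusted p = 4.3e-04), and the call held in all 12 alternative analyses and with each of the 14 mice left out.

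Other astrocyte genes lay above intact cortex without passing the test. Of 8 genes for astrocyte identity, channels and transporters, limma called 0, 7 were above 0 and the median difference was 0.30, and DESeq2 called 1 and edgeR 2 of them higher. Aqp4, the water channel of astrocyte end feet, was at 375, 568, 272, 988, 890, 1495 and 412 against 258 to 449, with mice 700, 715, 721 and 727 above the intact range. Its difference was 0.90 (SE 0.26, limma adjusted p = 0.0510), and DESeq2, edgeR and centring each sample on its median or on the reference genes called it. Aldh1l1, an enzyme used to mark astrocytes, had 327 ± 57.9 (SD, n = 7) against 230 ± 31.04 (SD, n = 7), a difference of 0.47 (limma adjusted p = 0.244), while Slc1a2, the main glutamate transporter, had 20540 against 16160 and a difference of 0.19 with an interval from -0.15 to 0.54. Of 11 reactive astrocyte genes, Gfap alone was called, and 9 were above 0 with a median of 0.35, which was 0.22 without mouse 733. Cd44, a hyaluronan receptor, was at 53.1, 57.2, 23.9, 73.3, 98.9, 119 and 85.8 against 8.05 to 79.5, a difference of 1.29 that did not pass (limma adjusted p = 0.150), and Nes and Hspb1, both markers of reactive glia, were at -0.26 each.

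Genes of border macrophages and blood leukocytes were near the low end of the panel. Of the 7 measured, 0 were called, and the summed level per mouse ran from 44.6 to 159 normalised counts (median 61.1) against 42.8 to 87.0 (median 57.2) in naive vehicle mice. Mouse 733 stood apart with 99.3 normalised counts of Ccr2, the receptor that recruits monocytes, where the other 6 injured mice held 4.76 to 14.8 and naive vehicle mice 4.40 to 15.0. The same mouse had the highest Spi1 of its group (33.8) beside low P2ry12 (16.9) and Csf1r (19.2). Mrc1, a mannose receptor of border macrophages, had 3.85 ± 1.24 (SD, n = 7) against 7.16 ± 3.23 (SD, n = 7) and did not pass (limma adjusted p = 0.3004). The part of leukocytes in the microglial values was not tested. Without mouse 733, 10 of the 23 microglial genes were lower, in place of 9, and over the panel 14 genes were lower and 3 higher.

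In the lists of neuronal, oligodendrocyte and endothelial or pericyte genes 0 were called, and nearly all were bounded. The interval lay within -1 and 1 for 11 of 11 pan-neuronal genes, 17 of 17 genes of synaptic vesicles and release, 18 of 19 glutamate genes, 15 of 16 genes of GABA signalling and interneurons, 16 of 17 oligodendrocyte and myelin genes and 14 of 14 genes of endothelium and pericytes. Map2, a dendritic microtubule protein, had a difference of -0.27 with an interval from -0.51 to -0.03 (limma adjusted p = 0.471), and Mapt, which encodes tau, had 0.00 with an interval from -0.19 to 0.19. Gad1, the GABA-making enzyme, was at 2324 against 2356 normalised counts. Mbp had -0.17 with an interval from -0.66 to 0.33. Of the 16 genes of GABA signalling and interneurons 12 were below 0, with a median of -0.18. With the samples centred on their median it was also 12. Below 0 were 14 of 17 genes of synaptic vesicles and release and 9 of 11 pan-neuronal genes, with medians of -0.08 and -0.06. Over the panel 513 of 799 genes were below 0. In the vessel list 13 of 14 genes were above 0, with a median of 0.23 beside the -0.05 of all genes and a range from -0.13 to 0.36, and Cldn5, a tight junction protein of brain endothelium, had 0.36 with an interval from -0.13 to 0.86.

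Genes driven by neuronal activity could be bounded less often. Of 25 activity and CREB pathway genes 0 were called, 19 were bounded and 23 were below 0, with a median of -0.07 beside the -0.05 of all genes. That median ran from -0.13 to -0.05 over the mice left out, moving over 1.5-fold without mouse 721, 733, 714 or 742. With the samples centred on their median 17 were below 0, and with edgeR 13, so that the sign of the list rests on the scaling. The undetermined ones included Fos, at 492 against 606 normalised counts with a difference of -0.69 and an interval from -1.76 to 0.38, and Nr4a2, at 170 against 275 with a difference of -0.67 (limma adjusted p = 0.471).

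Inflammatory genes were mostly bounded near intact levels or could not be decided. Of 38 cytokine, receptor and NF-kB genes, Tgfb1 was lower, 0 were higher, 25 were bounded and 12 were undetermined. The nearest to a call were Il6ra, the interleukin 6 receptor, at -0.82 (limma adjusted p = 0.0697), and P2rx7, the ATP-gated channel upstream of interleukin 1 release, at -0.57 (limma adjusted p = 0.0697). Ccl3, a chemokine of activated microglia, had 29.5 ± 19.9 (SD, n = 7) against 10.5 ± 4.46 (SD, n = 7), a difference of 1.17 that did not pass (limma adjusted p = 0.454), and so did Clec7a, a receptor of disease-associated microglia, with 25.0 ± 16.2 against 9.17 ± 2.12. Of 5 interferon and antigen presentation genes 0 were called, with a median difference of 0.43 that was 0.14 without mouse 733 and 0.24 without mouse 685. Cxcl10 had 0.88 with an interval from -0.37 to 2.12. Of 19 lysosome and autophagy genes 17 were bounded, of 38 growth factor and matrix genes Tgfb1 and Tgfbr1 were lower, and of 28 genes linked to neurodegeneration Cd33 was lower. Clu, a chaperone of astrocytes, ran from 3267 to 9091 against 3266 to 4375, a difference of 0.48 (limma adjusted p = 0.220). Among 20 apoptosis and stress genes 0 were called and 19 were bounded, and among 10 genes of oxidative stress defence 0 were called and 9 were bounded. All 11 reference genes of the panel were bounded.

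The distance at 30 days can be set beside that of the same diet without injury. Naive PLX5622 cortex differed from naive vehicle cortex by 27 lower genes (3.38%) and 0 higher ones. Both comparisons share the naive vehicle mice, so the question of movement was put directly, PLX5622 at 30 days against naive PLX5622. There 18 genes (2.25%) were called, and all 18 were higher at 30 days. Without mouse 727 the count was 10. C1qb rose by 3.65 on the log2 scale (SE 0.56, limma adjusted p = 7.4e-06), from a mean of 10.8 to 192 normalised counts, and C1qa rose by 3.44 (SE 0.51, limma adjusted p = 6.3e-06), from 3.62 to 70.0. Cx3cr1 rose by 2.48 (SE 0.34, limma adjusted p = 1.5e-06), and all 7 injured mice were above all 6 naive PLX5622 mice, as held for 2 genes of the panel (0.25%). Cd68 rose by 1.53, P2ry12 by 1.24 (limma adjusted p = 0.0029 for each), Trem2 by 1.65 (limma adjusted p = 0.0039) and Csf1r by 1.44 (limma adjusted p = 0.0205), the last call being lost without mouse 715, 721, 727, 713 or 736. Tmem119, with a difference of 0.32, was not called (limma adjusted p = 0.531).

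As shares of the naive vehicle mean, the microglial genes stood at unlike heights. P2ry12 was at 3.49% in naive PLX5622 cortex, 4.86% at 1 day, 6.50% at 7 days and 10.6% at 30 days. C1qb went from 2.30% through 4.21% and 13.3% to 41.1%, and Trem2 from 16.97% through 23.5% and 24.6% to 81.3%. Tmem119 had 20.3%, 28.0%, 26.8% and 26.0%. Cd68 had 32.9%, 81.8%, 60.0% and 108%. Gfap was at 129% without injury and at 967%, 1025% and 958% at the 3 times. Arithmetic means are lifted by the highest mice. For Trem2 at 30 days, mice 685, 708, 715 and 733 held 9.91 to 33.4 normalised counts and mouse 727 held 133. In the fit on the log2 scale, Trem2 at 30 days lay 0.92 and C1qb 1.94 below naive vehicle. These shares rest on the same naive vehicle mice and are given as levels. Time after injury and time on the drug cannot be told apart in them.

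**Figure D3:**
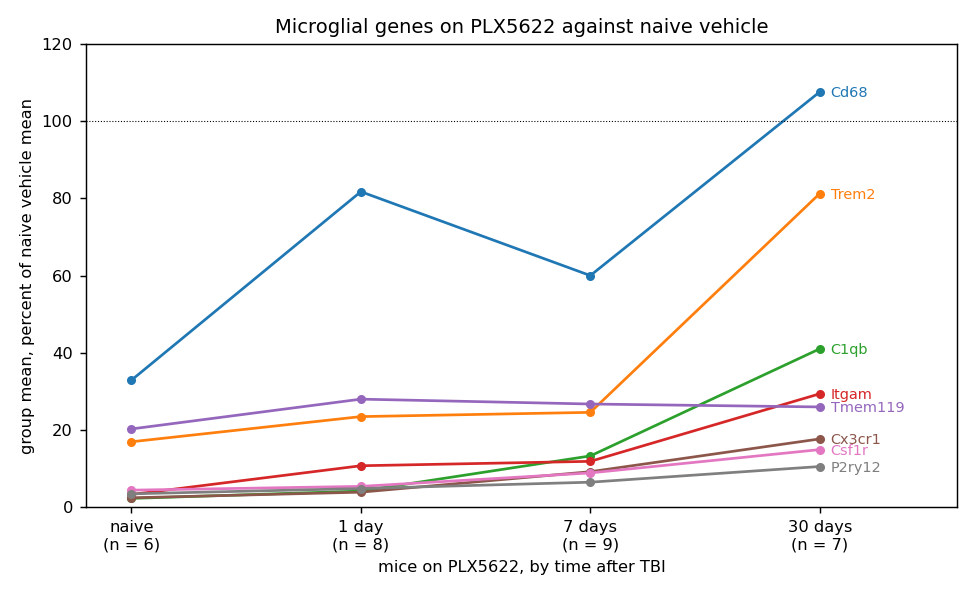
Group mean as percent of the naive vehicle mean (y axis) for 8 microglial genes in naive PLX5622 mice (n = 6) and at 1 (n = 8), 7 (n = 9) and 30 days (n = 7) after TBI on PLX5622, with a dotted line at the intact level. Means of Cd68 and Trem2 end at 108% and 81.3%, with 4 of 7 mice below the intact range for Trem2, while P2ry12, Csf1r and Cx3cr1 end at 10.6%, 14.9% and 17.7% and Tmem119 stays between 20.3% and 28.0%.

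At 1 day, PLX5622 cortex differed from naive vehicle cortex by 83 genes (10.4%), 36 higher (4.51%) and 47 lower (5.88%). That count was 48 with only the compared groups in the fit and 49 without naive vehicle mouse 732. At 7 days it was 24 genes (3.0%), 3 higher (0.375%) and 21 lower (2.63%), and 41 with DESeq2 (5.13%) and 40 with edgeR (5.01%). These counts share the naive vehicle mice with the 18 genes at 30 days, and they were not tested against each other. Against earlier times on the same diet, 24 genes (3.0%) were called between 30 days and 1 day, 14 higher (1.75%) and 10 lower (1.25%) at 30 days. The count was 59 with DESeq2 (7.38%), 53 with edgeR (6.63%) and 38 without mouse 733. The higher ones included Cx3cr1 (1.94, limma adjusted p = 7.8e-05), C1qb (2.88, limma adjusted p = 3.1e-04), C1qa (2.44, limma adjusted p = 0.00101) and the astrocyte gap junction gene Gja1 (0.84, limma adjusted p = 0.00437). The lower ones included Lox, a collagen cross-linking enzyme, which was at 619.5% of intact at 1 day and 135% at 30 days (-1.94, limma adjusted p = 7.8e-05), the heat shock gene Hspb1 (-1.32, limma adjusted p = 0.00222) and the intermediate filament gene Nes (-0.97, limma adjusted p = 0.00437). Gfap had a difference of -0.48 with an adjusted p of 0.780. Between 30 and 7 days limma called 0 genes (0.0%), with 33 at an unadjusted p under 0.05 (4.13%) and 1 called by each of edgeR and DESeq2.

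On the control chow few differences from intact cortex were detected at the same time. Vehicle mice at 30 days differed from naive vehicle mice by 0 genes with limma, 0 with edgeR and 1 with DESeq2, with 29 genes at an unadjusted p under 0.05 (3.63%). For 689 genes (86.23%) the 95% interval lay within -1 and 1, and 110 genes were undetermined. Among these was Gfap, at 252.6% of intact with a difference of 0.76 and an interval from -0.47 to 2.00, and Nr4a2, at 42.3% of intact, had -1.43 with a limma adjusted p of 0.0552. The difference between diets at 30 days was tested directly, and 21 genes (2.63%) were called, 20 lower (2.5%) and 1 higher (0.125%) on PLX5622. Without vehicle mouse 707 the count was 13. P2ry12, at 134% of intact in vehicle mice, had a log2 difference of -3.80 (PLX5622 minus vehicle, limma adjusted p = 1.3e-15), and Tmem119, at 98.6% of intact, had -1.89 (limma adjusted p = 8.3e-11). C1qb, at 136% of intact in vehicle mice, had -2.30 (limma adjusted p = 0.0120), a call lost without mouse 707 or 708. Gfap was higher by 2.15 (limma adjusted p = 0.0321), with vehicle means of 874 ± 972 (SD, n = 5), and this call was lost without any 1 of 8 of the 12 mice (700, 715, 721, 727, 684, 707, 722 or 728) and in 5 of 12 alternative analyses.

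The injured PLX5622 mice varied among themselves more in microglial and complement genes than over the whole panel. The median SD of log2 values over all 799 genes was 0.27 in these mice and 0.28 in naive vehicle mice, but over the 23 microglial genes it was 0.92 against 0.36 and over the 7 complement genes 1.15 against 0.34. Naive PLX5622 mice had 0.36 over all genes, 0.56 over the microglial and 0.79 over the complement genes, and vehicle mice at 30 days had 0.35, 0.47 and 0.73. No test was made of these spreads. The summed microglial level was 434, 874, 289, 666, 1159, 1356 and 653 normalised counts in the 7 mice, against 1758 to 2324 in naive vehicle mice and 235 to 415 in naive PLX5622 mice. Mouse 708 was thus within the range of uninjured mice on the drug, and no mouse reached that of intact cortex. Mouse 708 also had the lowest Gfap, Aqp4, Cd44, Trem2 and Cd68 of its group, and mouse 727 had the highest Gfap, Aqp4, Cd44, Trem2, P2ry12 and Csf1r.

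**Figure D4:**
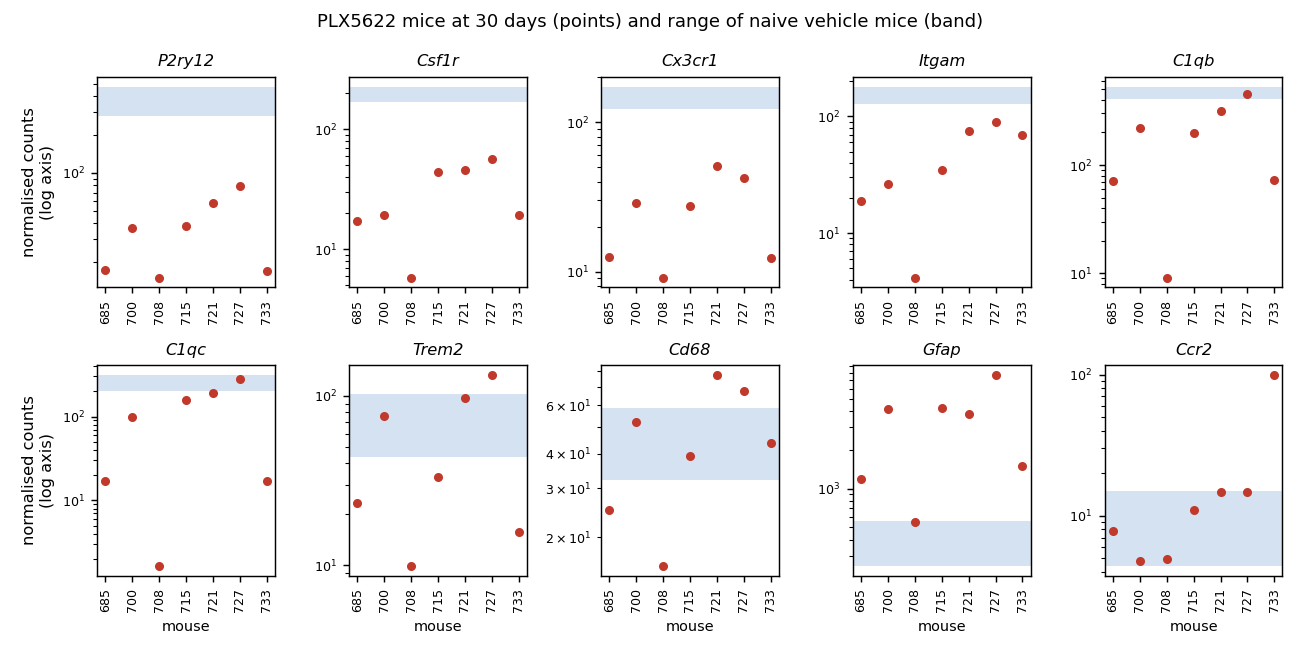
Normalised counts (log axis, scaled for each gene) of 10 genes in each of the 7 mice on PLX5622 at 30 days (points, mouse number on the x axis), with the range of the 7 naive vehicle mice as a band. Mice 685, 708 and 733 are the lowest for P2ry12, Cx3cr1, C1qb, C1qc, Trem2 and Gfap, and mouse 733 alone is far above the band for Ccr2, at 99.3.

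Batches were spread over both groups, but unevenly. In extraction batch 2, 3 injured mice met 1 naive vehicle mouse, number 732. The 14 mice were run on 5 nCounter cartridges and extracted in 3 batches, as the labels give them. Within each extraction batch all 18 called genes kept their direction, with P2ry12 between -3.92 and -3.50 and Gfap between 2.40 and 3.09 on the log2 scale. These genes were called from the same mice, so a kept direction within batches or cartridges is no separate support for the calls. The share of the whole panel that kept its direction was not counted. Cartridge 2, with injured mice 700 and 708, held no naive vehicle mouse, so these mice have no part in the comparison within cartridges. Within the other 4 cartridges the direction was kept by 17 of 18 genes. The exception was Ncf1, at 0.05 on cartridge 5, where 1 injured mouse met 2 naive vehicle mice. Sizes varied over cartridges, with C1qc between -3.94 and -0.44 and Gfap between 1.5 and 4.02. Of the 18 calls, 9 held in all 12 alternative analyses and with each mouse left out, among them P2ry12, Tmem119, Csf1r, Cx3cr1, Tgfbr1, Gfap, Stab1 and Itgam. Leaving out mouse 708 reduced the lower genes from 17 to 9, and leaving out naive vehicle mouse 732 reduced them to 11. Fitting only the compared groups reduced them to 8.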

How the data were processed

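The labels put 55 mice in 8 groups, and 799 genes of cortical RNA were counted per mouse. The deposited values are normalised signal, that is, counts divided by a factor per sample. The submitters' processing notes name DESeq2 without a version and no step for background. Whole counts were recovered for 100% of values (tolerance 0.02). Per the labels' protocols, Gapdh and Actb guided the number of pre-amplification cycles, which is not listed by mouse.

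Log2(value + 1) was fitted with limma 3.58.1 in R 4.3.3 (lmFit, eBayes with a trend) over all 55 mice, with a mean for each of the 8 groups and a term for the cartridge. Differences on this scale understate changes of low genes. P-values are two-sided and adjusted by Benjamini-Hochberg over 799 genes, with a threshold of 0.05. The fit was tested on simulated data with the same spread for a gene in all groups and no batch effect. That simulation does not bear on genes whose spread differs between groups. The 12 alternatives were edgeR 4.0.16 and DESeq2 1.42.0 on the recovered counts, extraction batch, both batches or no covariate, centring each sample on its median or on the reference genes, only genes with a mean of at least 20, a pseudocount of 10 in place of 1, robust eBayes, eBayes with no trend, and only the groups compared. The mice of the 4 groups naive vehicle, naive PLX5622, vehicle 30 days and PLX5622 30 days were left out in turn.

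Members and gene lists were chosen with earlier results of these data known. The rule for named genes took the 12 largest rises and falls among called genes, the 4 smallest p in each list that had a called gene, the 6 called genes with the smallest p in each direction of the other PLX5622 comparisons, and in any case the astrocyte and complement genes Gfap and C4a and the microglial genes Trem2, Cd68, Aif1, Itgam, Tmem119, P2ry12, Cx3cr1 and Csf1r. Of the 18 called genes, 2 are not reported here. Other genes named were chosen after their values were seen. P-values of the main fit rest on the spread between mice within groups, pooled for each gene over all 8 groups. This can differ from the spread in the groups compared. For C1qc the SD of log2 values was 2.45 on PLX5622 at 30 days and 0.24 in naive vehicle mice. Promoters are from RefSeq (GRCm38.p6).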

Additional observations from a re-analysis of the deposited data

Results flagged for a closer look

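In groups of 4 to 10 mice, 1 mouse can stand far from the rest of its group, measured as its gap to the nearest other mouse over the range of the group. Of 296 such group and gene pairs looked at, 20 had a mouse this far out, and chance flags about 1 in 20. Over the panel, 61 of 799 genes had such a mouse among the injured PLX5622 mice at 30 days. The mice listed here can be among those that chance flags. In that group, mouse 733 was highest for the monocyte receptor gene Ccr2 at 99.3 normalised counts, and mouse 708 was lowest for Cd33 at 5.78 and for the chemokine gene Cxcl10 at 4.96. The myelin gene Mbp was lowest in mouse 733, at 3123.

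In naive PLX5622 mice, mouse 698 was highest for Aldh1l1 at 351, for Mrc1 at 11.1, for Slc1a2 at 28444 and for Syt1 at 17691, and it was listed at 0 for C1qa. Mouse 698 had the lowest total count of its group, 230246, and 1 count stood for 2.77 normalised counts. Its Mrc1 and C1qa values thus rest on few or no counts, and the part of depth was not tested. Mouse 713 of that group was lowest for Gfap at 146, and mouse 731 was highest for Map2 at 1082. In vehicle mice at 30 days, mouse 716 was highest for the growth factor gene Csf1 at 330, for Fcrls at 193, for Irf8 at 29.3 and for the metalloproteinase gene Mmp12 at 11.6. Mouse 722 was highest for S100b at 378 and for Atxn3 at 224, mouse 707 was highest for Aif1 at 20.3, mouse 728 was lowest for Nes at 50.7, and mouse 684 was lowest for the activity gene Nr4a2 at 23.0.

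The change from naive to 30 days after TBI differed between diets for 3 genes (0.375% of 799) by an interaction term in the same limma fit, which was added after seeing the data. The change on PLX5622 was larger by 2.18 on the log2 scale for Cx3cr1 (limma adjusted p = 0.0398), by 3.05 for C1qa (limma adjusted p = 0.0430) and by 3.29 for C1qb (limma adjusted p = 0.0430). The count ranged from 0 to 5 over the single mice left out. On the log2 scale a change is a ratio, and the naive PLX5622 levels were low. As shares of the naive vehicle mean, Cx3cr1 went from 2.46% to 17.7% on PLX5622. C1qa went from 2.19% to 42.5% and C1qb from 2.30% to 41.1%. Vehicle mice at 30 days stood at 123.5%, 135.8% and 135.6% for these genes. Whether the changes differ between diets in counts was not tested.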

How the results depend on the processing

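The 17 lower genes numbered 8 when only the compared groups were fitted and 9 to 18 with 1 mouse left out (9 without mouse 708, 11 without mouse 732). The 1 higher gene became 2 with genes of mean 20 or more, no covariate or a pseudocount of 10, 3 with the samples centred on their median, 4 with reference genes or DESeq2 and 5 with edgeR, and 1 to 3 with a mouse left out, so that the split of higher against lower moved from 1 and 17 to 4 and 17 with reference genes. Against PLX5622 at 1 day, 24 genes became 39 with reference genes, 45 with median centring, 53 with edgeR, 59 with DESeq2 and 16 to 38 with a mouse left out. Against PLX5622 at 7 days, 0 became 1 with DESeq2 and with edgeR and 0 to 2 with a mouse left out. Left-out mice gave 10 to 23 genes against naive PLX5622 and 13 to 22 against vehicle at 30 days. For vehicle at 30 days against naive vehicle, 0 became 1 with DESeq2, either centring or genes of mean 20 or more, and 0 to 1 with a mouse left out. PLX5622 at 1 day against naive vehicle gave 83 genes, 48 with only the compared groups and 49 to 86 with a mouse left out (49 without mouse 732), and at 7 days 24 became 41 with DESeq2 and 40 with edgeR. The interaction called 3 genes, 5 with DESeq2 or edgeR, 1 with extraction batch, no covariate or robust eBayes, 0 without a trend or with a pseudocount of 10, and 0 to 5 with a mouse left out. The bounded genes, 702, ran from 601 to 762 over the alternatives that give an interval. Of 43 called differences of named genes 0 changed sign, and of 56 that were not called 10 did, such as Cd68 (-0.18 to 0.20) and C4a (-0.14 to 0.07). The median of all genes ran from -0.075 to -0.029 with a mouse left out, moving over 1.5-fold without mouse 708, 733 or 732. The cause of these moves was not tested. Of the 79 undetermined genes 52 had a mean under 20 normalised counts, and the part of depth in the others' wide intervals was not tested. No paired analysis was possible because the replicate numbers are mouse identities and the groups share none.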
